A study of Mus musculus with 6 samples.

Results

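Langerhans cells are the dendritic cells of the epidermis. Here they were single-cell barcodes chosen by measured values: a barcode that passed the cell filters was taken when it held at least 1 UMI of Cd207, which encodes the lectin langerin, and at least 5 UMIs summed over the MHC class II genes H2-Aa, H2-Ab1 and H2-Eb1 and the invariant chain gene Cd74. Cells were kept when they had 500 or more UMIs (distinct captured transcript molecules), 300 or more detected genes and no more than 10% of UMIs from mitochondrial genes. The rule chose 459 of 34834 kept cells, or 1.32%. Because Cd207 and the class II genes chose the cells, their levels are given as a description and were not tested.

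The cells came from dorsal skin of male wild-type C57BL/6 mice, sequenced as whole-skin suspensions with the 10x Genomics 3′ chemistry, which counts molecules near the 3′ end of polyadenylated transcripts. PBMC-sec skin was freshly collected from mice 8, 26 or 52 weeks old and exposed ex vivo, before it was dissociated, to what mononuclear cells of peripheral blood release after γ-irradiation (their secretome). Untreated skin came from mice of the same 3 ages and was dissociated directly after collection, so that exposure to the secretome and ex vivo holding cannot be told apart. Each of the 6 combinations of age and treatment was 1 library, and each library pooled 3 animals.

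Langerhans cells sit between the keratinocytes of the epidermis, extend dendrites toward its surface and take up antigen. Keratinocyte contact and TGF-β signalling hold them in place, and on maturation they lower their adhesion to keratinocytes, gain the chemokine receptor CCR7 and leave for the skin-draining lymph nodes. They display peptides on MHC class II molecules, which are loaded in endosomes with the help of Cd74, cathepsin S and the H2-DM complex.

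PBMC-sec libraries held 59 Langerhans cells among 5459 kept cells at 8 weeks, 131 of 5924 at 26 weeks and 46 of 4949 at 52 weeks. Untreated libraries held 102 of 9237 at 8 weeks, 94 of 5579 at 26 weeks and 27 of 3686 at 52 weeks. The summed depth of these cells lay between 250221 and 868335 UMIs per library. The median depth of a Langerhans cell in PBMC-sec libraries was 2756 UMIs at 8 weeks, 3280 at 26 weeks and 5269.5 at 52 weeks, against 2952, 3382 and 7242 UMIs in untreated libraries. The 5 deepest cells held 18.1% to 49.3% of a library's Langerhans cell UMIs. In the 8-week untreated library 2800 kept barcodes, 30.3% of its kept cells, fell into clusters whose counts scattered about as sampling does. Their scatter around the profile of the cluster was at most 1.5 times that of sampling. They are called repeated barcodes here, and whether they came from the same cells was not tested. Of this library's 102 Langerhans cells, 32 were among them. The other libraries held at most 38 such barcodes and none among the Langerhans cells. The number of barcodes that were Langerhans cells in each of 2 libraries was 1. Among all 34834 kept cells, 690 barcodes occurred in more than 1 library, whatever the cell type.

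Langerhans markers that the rule did not use stood far above their level in the other cells of the skin. Mfge8, whose secreted product binds phosphatidylserine on dying cells, measured 7665, 3288 and 1860 CPM (UMIs per 1000000 UMIs summed over the cells) in Langerhans cells of PBMC-sec libraries at 8, 26 and 52 weeks. In untreated libraries it measured 5886, 4821 and 1779 CPM at the same ages, and in all other cells it lay between 24.2 and 76.1 CPM. Ltc4s, which encodes the enzyme that makes leukotriene C4, measured 575, 518 and 271 CPM in Langerhans cells of PBMC-sec libraries and 345, 376 and 239 CPM in untreated ones, against 1.38 to 4.30 CPM in all other cells. A Ltc4s UMI was found in 47.1% to 78.3% of Langerhans cells and in 0.466% to 1.07% of other cells. For Mfge8 and Ltc4s, every library of Langerhans cells lay above every library of other cells.

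The nearest comparison population was 266 cells with no Cd207 UMI and at least 20 class II UMIs, a higher limit than the 5 for Langerhans cells. The genes of the rule separated the 2 populations, so the differences that follow are also a description. The 12 keratinocyte markers described below summed to 25549 to 56904 CPM in Langerhans cells and to 8082 to 19489 CPM in these 266 cells. What part that difference had in the values that follow was not tested. Across libraries the median level of Il1r2, the decoy receptor for interleukin-1, was 1972 CPM in Langerhans cells and 242 CPM in the class II cells without Cd207. Medians were 741 and 247 CPM for the growth factor gene Pgf, 254 and 74.4 CPM for St14, which encodes the epithelial protease matriptase, and 180 and 60.9 CPM for the prostaglandin D synthase gene Hpgds. In the other direction, Ctss, the cathepsin S gene, had medians of 417 CPM in Langerhans cells and 691 CPM in the class II cells without Cd207, and the protease inhibitor gene Cst3 had 4829 and 8556 CPM.

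Single defining markers of the other immune cells were mostly at or near 0. The C1q genes, some neutrophil markers and, in the 8-week untreated library, the summed T or innate lymphoid cell markers were not. Across all 6 libraries the Langerhans cells held 0 UMIs of the macrophage mannose receptor gene Mrc1, 0 to 2 per library of Pf4 and 0 to 1 of Lyve1. They held 0 to 1 UMIs of Xcr1, which marks type 1 dendritic cells, 0 to 2 of Cd209a, which marks dermal type 2 dendritic cells, and 0 to 13 of the T cell gene Cd3e. The sum over 10 macrophage markers was 1179, 428 and 216 CPM in PBMC-sec Langerhans cells at 8, 26 and 52 weeks and 694, 381 and 149 CPM in untreated ones, most of it from the 3 C1q genes, with 4 to 7 of the 10 markers at 0 in each library. In all other cells that sum lay between 40.2 and 374 CPM, and in class II cells without Cd207 between 343 and 3334 CPM. Sums over 7 type 1 dendritic cell markers reached at most 62.9 CPM, against 43.7 to 103 CPM in all other cells. Their median over libraries was 31.7 CPM, close to the 29.5 CPM of class II cells without Cd207. Over 7 type 2 dendritic cell markers the sum was 10.6 to 49.96 CPM. Every library lay above the 1.78 to 10.3 CPM of all other cells, while class II cells without Cd207 held 37.2 to 182 CPM. Over 10 T or innate lymphoid cell markers it reached 172 CPM, against 114 to 217 CPM in all other cells. That value was from the 8-week untreated library, with 9 of the 10 markers detected. Over 6 neutrophil markers the sum reached 964 CPM, against 909 CPM at most in all other cells.

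Keratinocyte transcripts were present in quantity. The summed level of 12 keratinocyte markers, among them Krt5, Krt14, Krt1, Krt10 and Dsp, was 29642, 38107 and 37765 CPM in Langerhans cells of PBMC-sec libraries at 8, 26 and 52 weeks. It was 25549, 43360 and 56904 CPM in untreated libraries, against 22979 to 37314 CPM in all other cells. These transcripts were concentrated in 166 of the 459 cells, each with more than 1% of its UMIs from the 12 markers, while 293 cells lay at or below 1%. The marker-rich cells held 50.8%, 66.4% and 78.6% of the Langerhans cell UMIs in PBMC-sec libraries at 8, 26 and 52 weeks, and 50.4%, 67.7% and 90.6% in untreated libraries.

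Marker-rich cells were deeper than marker-poor cells in 5 libraries, with medians of 5067, 15749 and 33885 UMIs in PBMC-sec libraries at 8, 26 and 52 weeks and of 765.5, 9986 and 14997 UMIs in untreated libraries. Marker-poor medians were 2621, 2877 and 4664 UMIs in PBMC-sec libraries and 3894, 3006 and 2821.5 UMIs in untreated libraries. In the 8-week untreated library the order was the other way round, and 32 of its 52 marker-rich cells were repeated barcodes with few class II UMIs. Marker-poor cells carried 281 to 349 class II UMIs at the median in PBMC-sec libraries and 209.5 to 378 in untreated ones. Levels in the 293 marker-poor cells are set beside the main results below, since the marker-rich part of the RNA was larger at the later ages. In the 8-week untreated library, 1 marker-poor cell held 39686 of the 257268 marker-poor UMIs, with 1 Cd207 and 5 class II UMIs. It stayed in all marker-poor values, and its part in them was not tested.

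**Figure D1:**
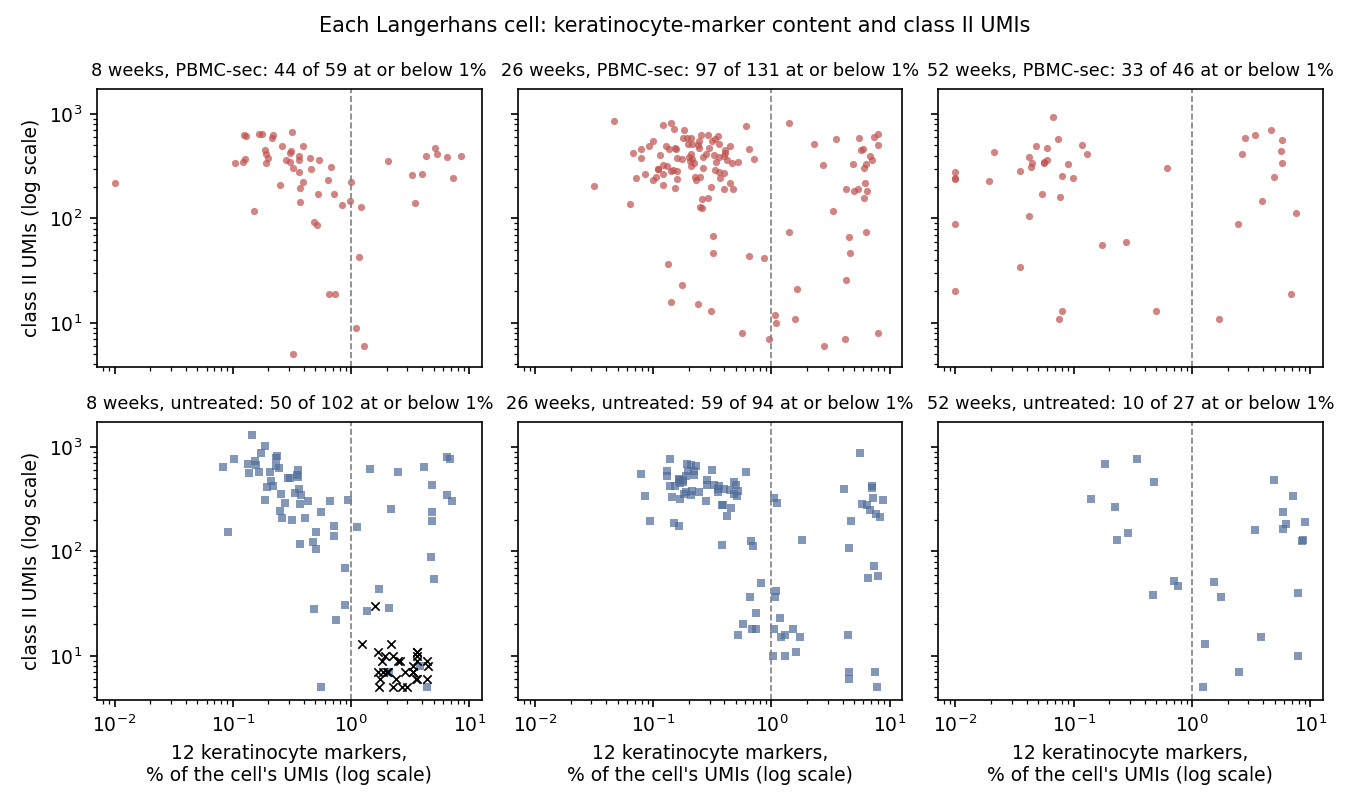
Class II UMIs per Langerhans cell (vertical axis, log scale) against the percentage of its UMIs from 12 keratinocyte markers (horizontal axis, log scale, values below 0.01% drawn at 0.01%), with PBMC-sec libraries in the upper row, untreated libraries in the lower row, ages from left to right, a dashed line at 1% and crosses on repeated barcodes. Most cells lie left of the line with over 100 class II UMIs, and in the 8-week untreated library a group of repeated barcodes lies right of the line with few class II UMIs.

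The genes that chose the cells are given as a description. Cd207 measured 5183, 3126 and 1889 CPM in PBMC-sec Langerhans cells at 8, 26 and 52 weeks and 4865, 4565 and 851 CPM in untreated ones. In the marker-poor cells it measured 7863, 7390 and 4912 CPM with PBMC-sec and 7195, 11294 and 5348 CPM untreated. Cd74 in the marker-poor cells measured 57777, 55782 and 27570 CPM with PBMC-sec and 40300, 60647 and 43225 CPM untreated, and H2-Aa measured 21290, 22531 and 13440 CPM with PBMC-sec and 15976, 25723 and 19049 CPM untreated. Levels over all Langerhans cells were lowest in the 52-week libraries for all 3 genes, and those in marker-poor cells overlapped between treatments.

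Genes that hold Langerhans cells in the epidermis or serve them there were measured in every library. Id2, a transcriptional regulator that Langerhans cells require, measured 336, 231 and 223 CPM with PBMC-sec and 322, 192 and 29.9 CPM untreated. Runx3, a transcription factor downstream of TGF-β, measured 196, 126 and 72.4 CPM with PBMC-sec and 199, 150 and 102 CPM untreated, against 4.64 to 12.2 CPM in all other cells. Epcam, an adhesion molecule that keratinocytes also express, measured 464, 428 and 335 CPM with PBMC-sec and 308, 348 and 546 CPM untreated, against 189 to 311 CPM in all other cells. Within an age, Id2 was higher and Runx3 lower with PBMC-sec at all 3 ages, Epcam was higher at 8 and 26 weeks and lower at 52 weeks, and none of the 3 passed edgeR's test for treatment.

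Among receptors and enzymes, Fcer1g, the signalling chain shared by Fc receptors, measured 859, 608 and 363 CPM with PBMC-sec and 503, 533 and 251 CPM untreated. Alox5ap, which activates 5-lipoxygenase ahead of Ltc4s in leukotriene synthesis, measured 196, 161 and 139 CPM with PBMC-sec and 303, 198 and 125 CPM untreated. Il1r2 measured 2398, 1545 and 703 CPM with PBMC-sec and 2650, 2415 and 961 CPM untreated. All 3 were lowest at 52 weeks under both treatments over all Langerhans cells, while in marker-poor cells the highest Alox5ap value, 854 CPM, was that of the 52-week untreated library.

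Of 757 kept cells with a Cd207 UMI, 41 were taken with 5 to 9 class II UMIs, just inside the limit, and 112 were left out with 1 to 4, just outside it. The 8-week untreated library held 27 of the 41 and 64 of the 112. A further 186 had no class II UMI, and 335 of the 459 Langerhans cells had at least 100. With 1 Cd207 UMI each, 80 cells were taken at the lowest value the rule allows.

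Langerhans cells made up 1.08% of PBMC-sec cells at 8 weeks (95% exact binomial interval 0.824 to 1.39), 2.21% at 26 weeks (1.85 to 2.62) and 0.929% at 52 weeks (0.681 to 1.24). In untreated skin they made up 1.10% at 8 weeks (0.901 to 1.34), 1.68% at 26 weeks (1.36 to 2.06) and 0.733% at 52 weeks (0.483 to 1.06). The share was highest at 26 weeks under both treatments, and the 52-week share was 0.42 times the 26-week share in PBMC-sec libraries and 0.435 times in untreated libraries. With 1 library per age and treatment, the order of the ages had no replicate check.

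The PBMC-sec share over the untreated share gave log2 ratios of -0.03 at 8 weeks, 0.39 at 26 weeks and 0.34 at 52 weeks. Their mean was 0.23 ± 0.23 (SD, n = 3 ages). The ratio was above 0 at 2 of 3 ages, and the mean was about the size of the spread between ages (two-sided exact sign-flip permutation p = 0.5, where 3 pairs can give no p below 0.25). A stricter rule of at least 2 Cd207 and 20 class II UMIs took 339 cells. Its ratios were 0.55, 0.68 and 0.57, with a mean of 0.60 and the smallest sign-flip p that 3 pairs allow, 0.25. The 8-week untreated share behind the 0.55 was 59 of 9237 kept cells, 2800 of which were repeated barcodes. No repeated barcode met the stricter rule, and its ratios without repeated barcodes were not computed. The rule counts raw UMIs, and kept cells were deeper with PBMC-sec at all 3 ages. Their medians were 2613, 3493.5 and 4804 UMIs, against 1128, 2211 and 3064 UMIs untreated. Among cells of 1000 or more UMIs, each thinned to 1000, the ratios were 0.01, 0.72 and 0.67. The intervals cover counting error only, and a share of kept cells also moves with the yield of every other cell type.

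**Figure D2:**
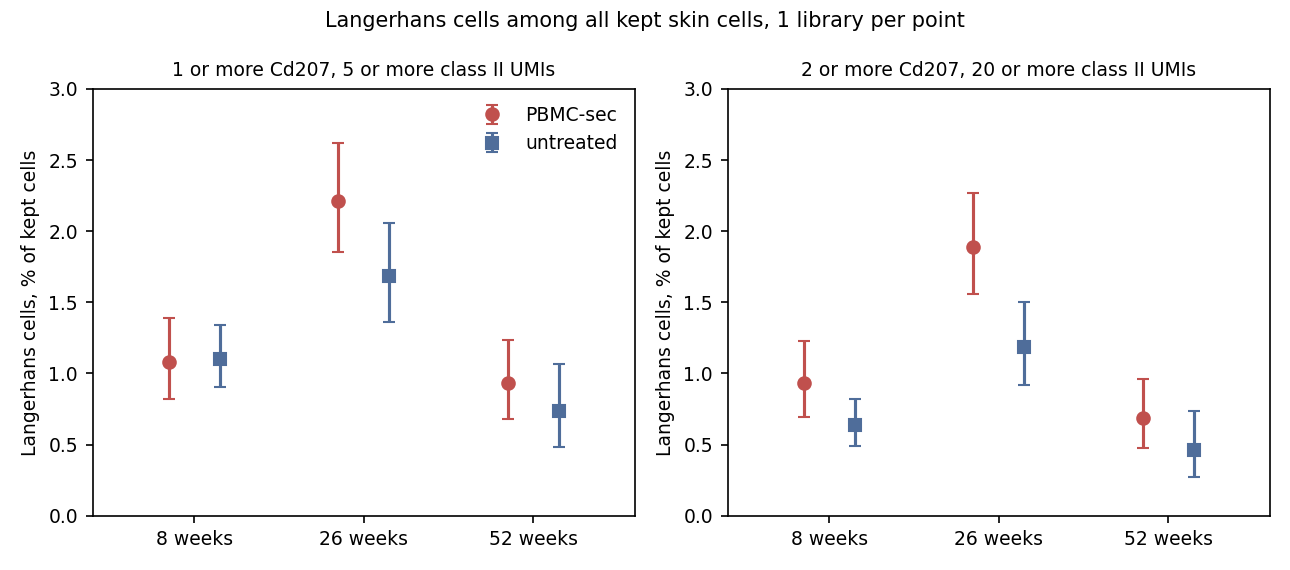
Langerhans cells as a percentage of kept cells (vertical axis) in each library, ages in order with PBMC-sec left of untreated, under the main rule and the stricter rule, with 95% exact binomial intervals as bars. Both treatments are highest at 26 weeks and lowest at 52 weeks under the main rule.

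A subset of Langerhans cells carried the transcripts of mature, migrating cells. Ccr7, the receptor that guides them toward lymph nodes, had a UMI in 16 of 59, 31 of 131 and 7 of 46 cells of PBMC-sec libraries at 8, 26 and 52 weeks (27.1%, 23.7% and 15.2%). In untreated libraries it had a UMI in 31 of 102, 18 of 94 and 4 of 27 cells (30.4%, 19.1% and 14.8%), against 0.276% to 1.37% of all other cells. The share was lowest at 52 weeks under both treatments. Thinned to 1000 UMIs per cell, which left out 67 shallower cells, a UMI remained in 10 of 53, 22 of 125 and 5 of 45 cells in PBMC-sec libraries and 17 of 68, 9 of 77 and 1 of 24 cells in untreated libraries.

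The cells with a Ccr7 UMI differed from the rest in a group of genes, described without a test because a transcript of the same cells split them. The median over libraries of Ccl22, which encodes a chemokine that attracts CCR4-bearing T cells, was 1492 CPM in Ccr7-positive cells and 15.9 CPM in Ccr7-negative ones. Medians were 593 and 6.11 CPM for the actin-bundling gene Fscn1, 642 and 15.5 CPM for Il4i1, an amino acid oxidase, and 163 and 5.39 CPM for Cd274, which encodes PD-L1. All 4 genes were higher in the Ccr7-positive cells of 6 of 6 libraries. The co-stimulatory receptor gene Cd40 had medians of 252 and 37.7 CPM and was higher in 5 of 6. Cd207 itself had medians of 3226 CPM in positive and 3513 CPM in negative cells, and H2-Aa had 10281 and 8625 CPM. The cornified envelope gene Lor, which keratinocytes express, had medians of 51.3 CPM in Ccr7-positive and 2734 CPM in Ccr7-negative cells.

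**Figure D3:**
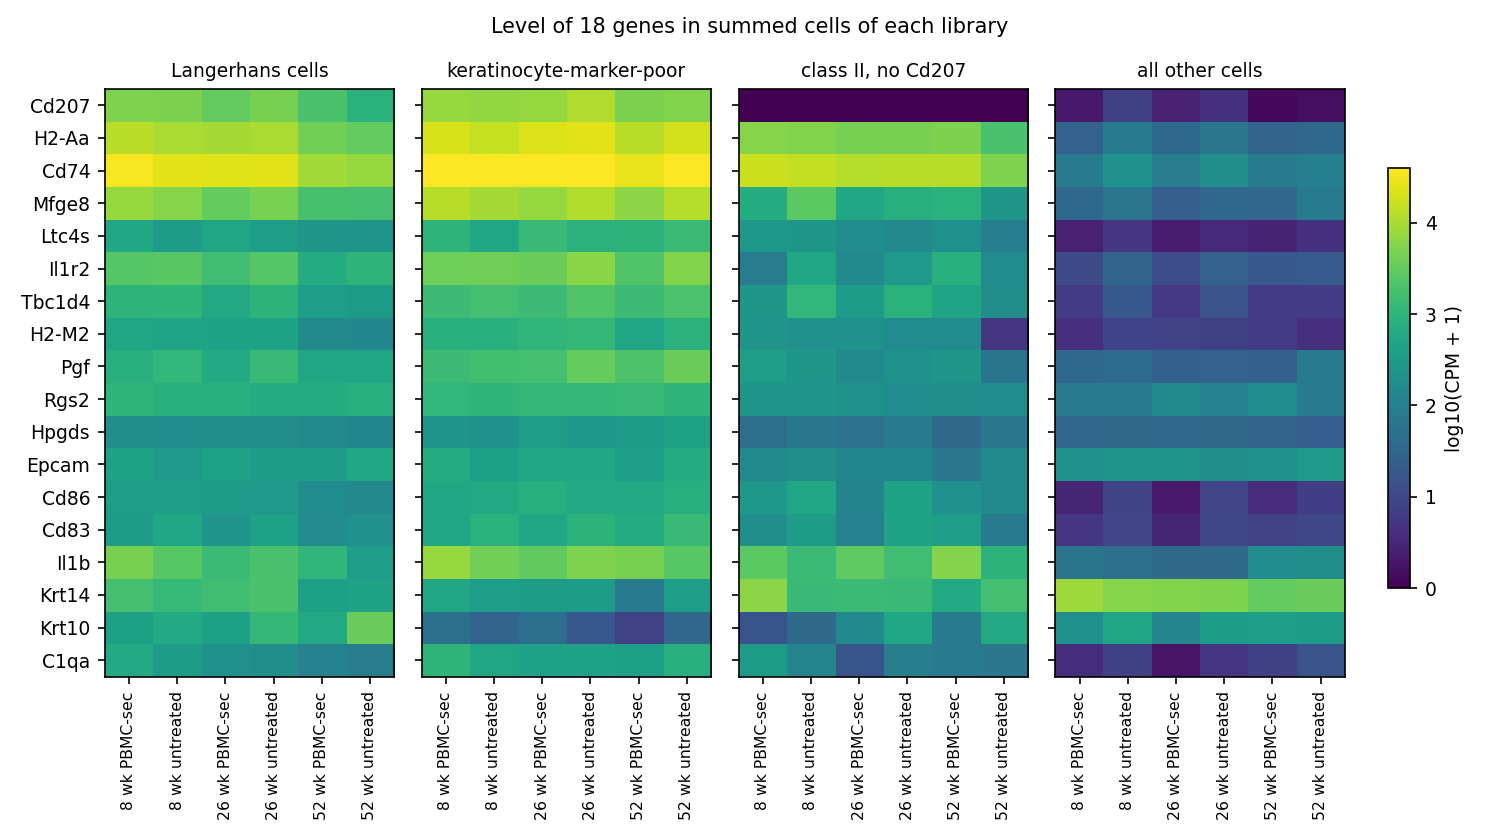
Levels of 18 genes (rows) in the 6 libraries (columns, PBMC-sec left of untreated within each age) as log10(CPM + 1), in 4 panels for Langerhans cells, the marker-poor Langerhans cells, class II cells without Cd207 and all other cells. Cd207, Mfge8 and Ltc4s are high in the Langerhans panels and low in all other cells.

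For the effect of PBMC-sec, UMIs were summed over the Langerhans cells of each library and tested with edgeR's quasi-likelihood test with age as a block, Benjamini-Hochberg adjusted over 5088 genes. Its p-values rest on how alike the treatment difference was at the 3 ages, with 2 residual degrees of freedom per gene. They also rest on spread borrowed from the other genes, toward which the test moves each gene's own spread. Of the genes tested, 32 were higher with PBMC-sec (0.629%) and 9 were lower (0.177%) at an adjusted p under 0.05, together 0.806%. Restricted to the marker-poor cells, 2 of 2043 tested genes were higher (0.0979%) and 0 were lower. Of the 41 genes, 31 had more than 80% of their UMIs in marker-rich cells and 3 had at most 50% there. Leaving out the 8-week pair of libraries gave 65 calls, and leaving out the 52-week pair gave 187.

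The 2 genes that passed in the marker-poor cells, H1f0 and Hist1h1c, both encode linker histones. Linker histones of the H1 family bind the nucleosome where DNA enters and leaves it and compact chromatin. H1f0, at chromosome 15, 79028450 to 79030504 on the plus strand of GRCm38, encodes the replication-independent variant that accumulates in differentiated cells. It measured 643, 522 and 439 CPM in PBMC-sec Langerhans cells at 8, 26 and 52 weeks and 110, 128 and 155 CPM in untreated ones. The lowest PBMC-sec value lay above the highest untreated value, and the difference was 2.19 on the log2 scale (SE 0.28, edgeR quasi-likelihood adjusted p = 0.0091). In marker-poor cells it measured 926, 470 and 381 CPM (114, 137 and 54 UMIs) with PBMC-sec and 120, 51.5 and 31.6 CPM (31, 9 and 1 UMIs) untreated, a log2 difference of 3.02 (SE 0.31, edgeR adjusted p = 0.0132). Over 14 alternative settings its adjusted p lay between 4.07e-11 and 0.0736, and 12 of them kept the call.

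Hist1h1c, at chromosome 13, 23738808 to 23740367 on the plus strand, encodes histone H1.2. It measured 308, 180 and 363 CPM in PBMC-sec Langerhans cells at 8, 26 and 52 weeks and 52.0, 44.4 and 35.8 CPM in untreated ones, with no overlap between PBMC-sec and untreated libraries. The log2 difference was 2.76 (SE 0.36, edgeR adjusted p = 0.00918). In marker-poor cells it had 63, 107 and 77 UMIs with PBMC-sec and 13, 7 and 0 UMIs untreated, and the 0 in the 52-week untreated library allows up to 94.9 CPM. UMIs of it were found in 22 of 44, 52 of 97 and 17 of 33 marker-poor PBMC-sec cells, against 8 of 50, 6 of 59 and 0 of 10 untreated ones. The log2 difference there was 3.43 (SE 0.43, edgeR adjusted p = 0.0317), and over 14 alternatives the adjusted p lay between 6.73e-11 and 0.0761.

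H1fx, at chromosome 6, 87980421 to 87981637 on the minus strand, encodes another replication-independent linker histone. It measured 296, 154 and 103 CPM with PBMC-sec and 104, 53.7 and 26.9 CPM untreated at 8, 26 and 52 weeks. Each PBMC-sec library lay above the untreated one of its age, while the groups overlapped across ages. The log2 difference was 1.76 (SE 0.29, edgeR adjusted p = 0.035), with 25.8% of its UMIs in marker-rich cells. In marker-poor cells it measured 455, 377 and 296 CPM (56, 110 and 42 UMIs) with PBMC-sec and 159, 126 and 63.3 CPM (41, 22 and 2 UMIs) untreated, a log2 difference of 1.58 that missed the threshold (edgeR adjusted p = 0.213, range over 13 alternatives 2.34e-05 to 0.319). H1fx was scarce outside these cells, at 3.53 to 19.1 CPM in all other cells.

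Hist1h1e, which encodes histone H1.4 and was singled out after its values were seen, measured 268, 271 and 206.5 CPM with PBMC-sec and 127, 144 and 188 CPM untreated. Its log2 difference of 0.87 did not pass (edgeR adjusted p = 0.206). Most transcripts of replication-dependent histone genes, to which Hist1h1c and Hist1h1e belong, end without a poly(A) tail, so that a 3′ library captures only part of them. The H1 genes are also close copies of each other, and reads shared between copies may have been divided by the counting.

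The promoters of these 2 replication-dependent genes are shown because one of the pair passed the test and the other did not. The windows are the 250 bases before the RefSeq transcript start on GRCm38.p6, at chr13:23738557-23738806 on the plus strand for Hist1h1c (RefSeq symbol H1f2) and chr13:23622559-23622808 on the minus strand for Hist1h1e (RefSeq symbol H1f4). Capitals mark AAACACA, the H1 box of linker histone promoters, and CCAAT.
Hist1h1c: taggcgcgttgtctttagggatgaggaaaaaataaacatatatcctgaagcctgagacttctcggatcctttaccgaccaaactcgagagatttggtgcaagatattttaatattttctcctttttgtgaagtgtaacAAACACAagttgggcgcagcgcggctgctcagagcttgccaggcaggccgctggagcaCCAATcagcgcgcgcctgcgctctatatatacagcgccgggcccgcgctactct
Hist1h1e: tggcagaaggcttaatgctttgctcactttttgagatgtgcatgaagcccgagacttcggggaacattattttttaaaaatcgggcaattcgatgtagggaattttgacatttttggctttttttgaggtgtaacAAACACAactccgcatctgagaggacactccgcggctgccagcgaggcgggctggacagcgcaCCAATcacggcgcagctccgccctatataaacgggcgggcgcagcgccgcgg
Both windows hold each motif once on the strand of the gene. The H1 box begins 112 bases before the start in Hist1h1c and 115 bases before it in Hist1h1e, and CCAAT begins 54 and 52 bases before it. Searched on both strands, 6.25% of 32851 RefSeq promoter windows of this length hold AAACACA, 33.8% hold CCAAT and 2.06% hold both. The windows of H1f0 (chr15:79027962-79028211) and H1fx (chr6:87981483-87981732, minus strand) hold neither string. For these 2 genes the RefSeq start differs from the gene start given above. The bases just before those gene starts were therefore not all searched, and the result covers these windows only. No base overlaps between the 2 motifs.

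Ptpre, at chromosome 7, 135537481 to 135686293 on the plus strand, encodes a receptor-type tyrosine phosphatase. It measured 180, 107 and 82.9 CPM in PBMC-sec Langerhans cells at 8, 26 and 52 weeks and 48.2, 42.6 and 14.9 CPM in untreated ones, with no overlap. The log2 difference was 1.93 (SE 0.33, edgeR adjusted p = 0.0386, range over 14 alternatives 5.59e-05 to 0.475, of which 7 kept the call). In marker-poor cells it measured 244, 240 and 282 CPM (30, 70 and 40 UMIs) with PBMC-sec and 77.7, 74.4 and 94.9 CPM (20, 13 and 3 UMIs) untreated, again with no overlap, and the log2 difference of 1.59 missed the threshold (edgeR adjusted p = 0.213).

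The other genes that rose with PBMC-sec were mostly carried by marker-rich cells. Phlda1, a pleckstrin homology domain gene, measured 1031, 1177 and 1550 CPM with PBMC-sec and 212, 257 and 406 CPM untreated (log2 difference 2.31, edgeR adjusted p = 0.00797), with 89.8% of its UMIs in marker-rich cells and a log2 difference of 0.47 in marker-poor ones. Akr1b3, which encodes aldose reductase, measured 312, 320 and 443 CPM with PBMC-sec and 40.5, 35.2 and 29.9 CPM untreated (log2 difference 3.47, SE 0.34, edgeR adjusted p = 0.00478). It measured 752, 513 and 691 CPM in all other cells of PBMC-sec libraries and 35.9, 41.2 and 39.7 CPM in those of untreated ones. Akr1b3 was thus lower in PBMC-sec Langerhans cells than in the other PBMC-sec cells at every age.

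Sprr2h, a small proline-rich protein gene of the cornified envelope, measured 2018, 3245 and 9567 CPM with PBMC-sec and 301, 1038 and 737 CPM untreated (log2 difference 2.86, edgeR adjusted p = 0.0386). Of its UMIs, 98.9% lay in marker-rich cells, and marker-poor cells held 81.2, 185 and 91.6 CPM with PBMC-sec and 93.3, 68.7 and 158 CPM untreated. Rises of the same kind, with 86.8% to 98.2% of UMIs in marker-rich cells, were measured for the stefin gene Csta1 (log2 1.76), the defensin gene Defb1 (2.11), the epithelial transcription factor gene Elf3 (1.77), the forkhead factor gene Foxo3 (1.78), the heparan sulfate sulfotransferase gene Hs3st1 (2.99), Ccdc71l (2.37) and Gm28592 (2.49). Csta1 and Sprr2h belong to families of close copies, so their counts may hold reads of relatives.

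Among the 9 genes that fell, those described here had 68.1% to 99.2% of their UMIs in marker-rich cells. Gas6, a ligand of the TAM receptors that clear dying cells, measured 11.99, 6.91 and 6.03 CPM (3, 6 and 4 UMIs) with PBMC-sec and 46.3, 46.3 and 41.8 CPM untreated (log2 difference -2.35, edgeR adjusted p = 0.0443), with 90.8% of its UMIs in marker-rich cells. Pcmtd1 measured 11.99, 11.5 and 4.52 CPM (3, 10 and 3 UMIs) with PBMC-sec and 54.0, 46.3 and 74.6 CPM untreated (log2 difference -2.45). Dapl1, Gadl1 and Capns2 fell by 2.52, 2.96 and 2.58 on the log2 scale, with 96.7% to 99.2% of their UMIs in marker-rich cells.

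**Figure D4:**
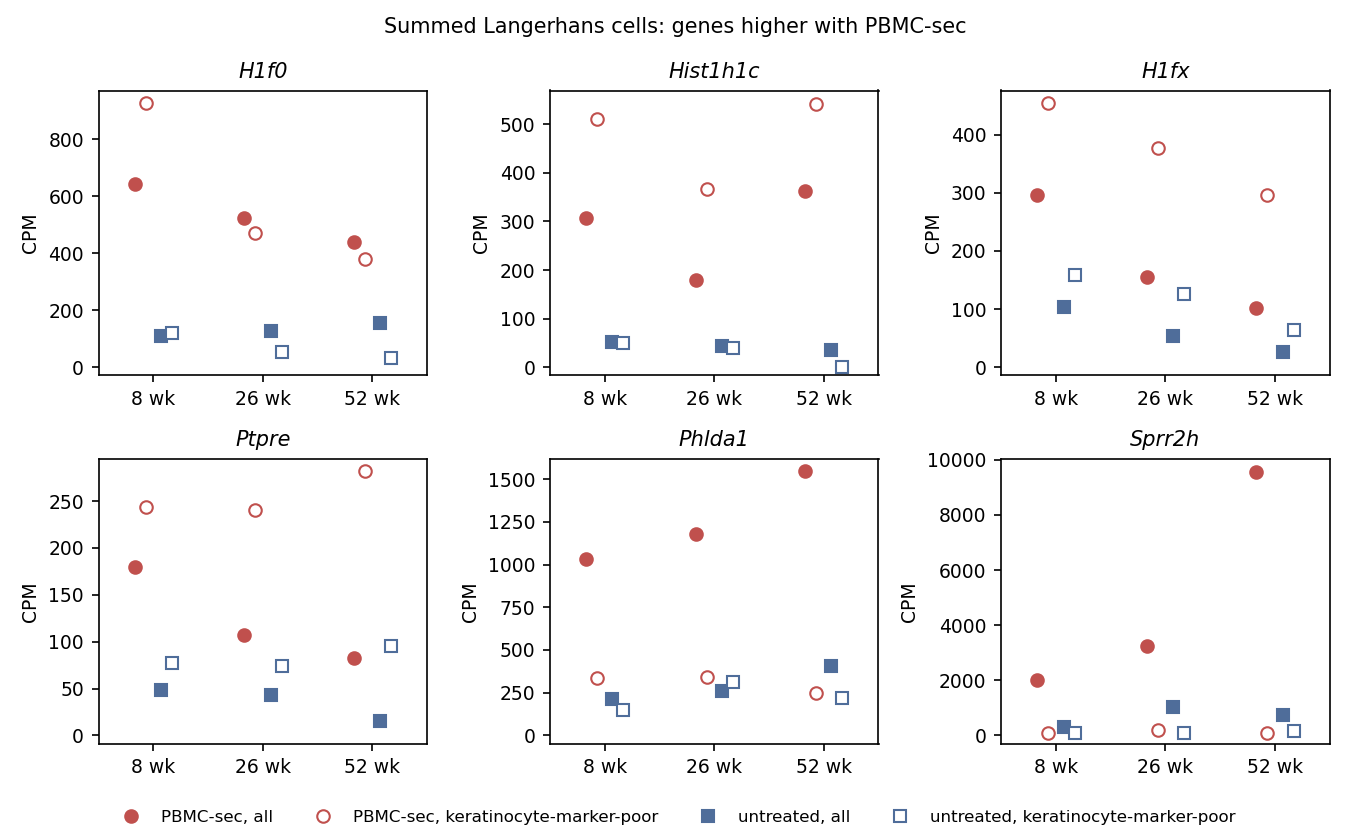
CPM (linear axis) of H1f0, Hist1h1c, H1fx, Ptpre, Phlda1 and Sprr2h in each library by age, PBMC-sec left of untreated. Filled points show all Langerhans cells and open points the marker-poor ones. H1f0, Hist1h1c and Ptpre are separated by treatment in both kinds of points, and Sprr2h is separated in the filled points and not in the open ones.

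Across lists of genes chosen for this tissue, few members passed edgeR's test, to which the list counts that follow refer. In simulated counts that test recovered 5.5% of 2-fold changes, so a gene that did not pass is not shown to be unchanged. Of 15 tested genes of Langerhans identity, 0 passed in either direction. Their median log2 difference was 0.30, against 0.03 over all 5088 genes, and it was -0.12 in marker-poor cells. The class II presentation list had 0 calls among 10 tested genes (median 0.31, and 0.06 in marker-poor cells), and the list of maturation and migration had 0 among 19 (0.42 and 0.15). In the maturation list, Ccl22 measured 631, 298 and 451 CPM with PBMC-sec and 457, 130 and 38.8 CPM untreated (log2 difference 1.71, SE 0.55, edgeR adjusted p = 0.252). Cd83 and Cd86, a maturation marker and a co-stimulatory ligand, had log2 differences of -0.44 and 0.26 and did not pass.

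Of 15 tested inflammatory cytokine genes none passed either (median 0.37). Il1b measured 4448, 1353 and 1085 CPM with PBMC-sec and 2510, 1936 and 370 CPM untreated, with overlapping groups. Lists of residence and TGF-β signalling (13 tested) and of lipid handling and efferocytosis (11 tested) each had 1 lower gene, Gas6. The hypoxia and glycolysis list had 1 higher gene of 22, the vasodilator peptide gene Adm, at a log2 difference of 1.47 (edgeR adjusted p = 0.0443) with 88.2% of its UMIs in marker-rich cells. No gene passed among 12 class I presentation, 5 pattern and Fc receptor, 10 lipid mediator, 20 NRF2 antioxidant, 16 unfolded protein, 21 immediate early, 12 heat shock, 16 oxidative phosphorylation, 17 ribosomal protein, 17 protease, 3 cell cycle or 11 ageing genes tested, whose medians lay between -0.15 and 0.66.

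Whether the effect of PBMC-sec differed between Langerhans cells and the rest of the skin was tested as an interaction of cell class and treatment. Of 13604 genes tested against all other cells, 149 differed (1.1%), of which 110 were higher in Langerhans cells (0.809%) and 39 lower (0.287%). Hist1h1c was among them: in all other cells it measured 169, 113 and 266 CPM with PBMC-sec and 90.1, 58.5 and 115 CPM untreated, and its rise was larger in Langerhans cells by 1.58 on the log2 scale (SE 0.32, edgeR adjusted p = 0.000212). Ptpre in all other cells measured 24.3, 26.4 and 29.6 CPM with PBMC-sec and 19.6, 23.2 and 28.1 CPM untreated, a difference of 1.59 between the effects (SE 0.37, edgeR adjusted p = 0.00308). For H1f0 the other cells measured 449, 336 and 395 CPM with PBMC-sec and 180, 144 and 182 CPM untreated, and the interaction of 0.80 did not pass (edgeR adjusted p = 0.341).

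Ccr7, Cd86 and Ctss, singled out after their values were seen, also gave interactions. Ccr7 in Langerhans cells measured 316, 149 and 112 CPM with PBMC-sec and 443, 181 and 74.6 CPM untreated at 8, 26 and 52 weeks. In all other cells it measured 3.22, 1.76 and 4.43 CPM with PBMC-sec and 26.6, 30.1 and 5.18 CPM untreated. The difference between the effects was 2.47 on the log2 scale (SE 0.32, edgeR adjusted p = 1.43e-11), while the log2 difference was 0.05 within the Langerhans cells and -2.28 in the other cells, neither of which passed. Cd86 and Ctss gave differences of 2.08 and 1.72 in the same direction, and in the other cells they fell by 1.72 and 1.20 on the log2 scale (edgeR adjusted p = 0.0478 for Cd86 and 0.0248 for Ctss). All other cells are a mixture of types, and their makeup was not held constant. Against the 266 class II cells without Cd207, 24 of 3901 genes differed (0.615%), 20 higher (0.513%) and 4 lower (0.103%), and in marker-poor cells none did; Ccr7, Cd86, H1f0, Hist1h1c and Ptpre were not among the 24.

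For age, the 2 libraries of 52-week skin were compared with the 2 of 8-week skin in the same fit, with treatment as a factor. At 52 weeks 4 of 5088 genes were higher (0.0786%) and 10 lower (0.197%). In the marker-poor cells 0 of 2043 genes passed (0%), with 170 at an unadjusted p under 0.05. Of the 10 lower genes, 9 had at most 50% of their UMIs in marker-rich cells, and all 4 higher genes had more than 80% there. The marker-rich part of the Langerhans cell UMIs moved with age too, at 78.6% in PBMC-sec and 90.6% in untreated libraries at 52 weeks, against 50.8% and 50.4% at 8 weeks, and its part in these calls was not tested beyond the marker-poor values. Leaving out 1 library gave 75 calls without the 8-week untreated library, 153 without the 8-week PBMC-sec one, 89 and 98 without the 26-week untreated and PBMC-sec ones, and 294 and 657 without the 52-week untreated and PBMC-sec ones.

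Tnf, at chromosome 17, 35199381 to 35202007 on the minus strand, encodes the cytokine TNF, which mobilises Langerhans cells. It measured 60.3 CPM in PBMC-sec and 38.8 CPM in untreated Langerhans cells at 52 weeks, against 923 and 370 CPM at 8 weeks. At 26 weeks it measured 159 CPM with PBMC-sec and 213 CPM untreated. Both 52-week values lay below both values of each younger age. The log2 difference between 52 and 8 weeks was -3.48 (SE 0.47, edgeR adjusted p = 0.0435). In marker-poor cells Tnf measured 113 CPM with PBMC-sec and 316 CPM untreated at 52 weeks, against 1543 and 696 CPM at 8 weeks, and the log2 difference of -2.81 (SE 0.58) kept its direction and missed the threshold (edgeR adjusted p = 0.458, range over 16 alternatives 1.51e-10 to 0.458). In class II cells without Cd207 Tnf measured 2501 CPM with PBMC-sec and 1045 CPM untreated at 52 weeks, against 1151 and 453 CPM at 8 weeks, and the difference between these classes was not tested.

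The complement genes C1qa and C1qc, whose products start the classical pathway and which are adjacent on chromosome 4, also fell. C1qc measured 34.7 CPM with PBMC-sec and 26.9 CPM untreated at 52 weeks, against 252 and 154 CPM at 8 weeks (log2 difference -2.56, SE 0.35, edgeR adjusted p = 0.0435). C1qa measured 109 and 86.6 CPM at 52 weeks, against 655 and 339 CPM at 8 weeks (log2 difference -2.18, SE 0.35, edgeR adjusted p = 0.0435), and C1qb, with a log2 difference of -2.05, did not pass (edgeR adjusted p = 0.0553). In marker-poor cells C1qc measured 127 and 158 CPM at 52 weeks in PBMC-sec and untreated libraries, against 431 and 249 CPM at 8 weeks. C1qa in those cells measured 402 and 791 CPM at 52 weeks, against 1040 and 513 CPM at 8 weeks, so that its 2 ages overlapped. Mrc1 had 0 UMIs in Langerhans cells of every library, and C1qc in all other cells lay between 0.608 and 17.4 CPM.

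Tnfsf9, Dusp2 and H2-DMb2 also fell at 52 weeks. Tnfsf9, the ligand of the T cell co-stimulator 4-1BB, measured 52.8 CPM with PBMC-sec and 65.7 CPM untreated at 52 weeks, against 392 and 293 CPM at 8 weeks (log2 difference -2.43, SE 0.36, edgeR adjusted p = 0.0435). Dusp2, a phosphatase of MAP kinases, measured 40.7 and 59.7 CPM at 52 weeks, against 484 and 214 CPM at 8 weeks (log2 difference -2.66, edgeR adjusted p = 0.0457). H2-DMb2, a chain of the class II peptide loader, measured 67.8 and 77.6 CPM at 52 weeks, against 400 and 283 CPM at 8 weeks (log2 difference -2.12, edgeR adjusted p = 0.0435). In marker-poor cells the log2 differences were -1.32 for Tnfsf9, -1.88 for Dusp2 and -0.72 for H2-DMb2, and the 52-week untreated value of H2-DMb2, 665 CPM, was the highest of the 6 libraries.

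Kdm2b, at chromosome 5, 122870665 to 122989823 on the minus strand, encodes a histone demethylase that recruits Polycomb complexes to CpG islands. It measured 52.8 CPM with PBMC-sec and 26.9 CPM untreated at 52 weeks, against 296 and 337 CPM at 8 weeks (log2 difference -2.86, SE 0.43, edgeR adjusted p = 0.0435). At 26 weeks it measured 173 CPM with PBMC-sec and 141 CPM untreated. The 3 ages did not overlap. In marker-poor cells it measured 169 and 94.9 CPM (24 and 3 UMIs) at 52 weeks, against 431 and 501 CPM (53 and 129 UMIs) at 8 weeks, a log2 difference of -1.84 (SE 0.40) between 52 and 8 weeks that missed the threshold (edgeR adjusted p = 0.458, range over 16 alternatives 1.06e-09 to 0.458). Adora2b, an adenosine receptor gene (log2 difference -2.09), Ly6a (-2.36) and the stromelysin gene Mmp3 (-5.63) completed the 10; the last 2 were left out by the limit on free RNA, and all 3 are named after their values were seen.

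The genes that rose at 52 weeks were carried by marker-rich cells. Tchh, which encodes trichohyalin of the hair follicle's inner root sheath, measured 220 CPM with PBMC-sec and 331 CPM untreated at 52 weeks, against 32.0 and 34.7 CPM at 8 weeks (log2 difference 3.09, SE 0.37, edgeR adjusted p = 0.0435), with 98.6% of its UMIs in marker-rich cells. Rnf39 rose by 3.05 on the log2 scale, with 99.2% of its UMIs there. Timp3, a metalloproteinase inhibitor gene, measured 57.3 CPM with PBMC-sec and 74.6 CPM untreated at 52 weeks and had 0 UMIs in both 8-week libraries, which allows up to 11.99 CPM with PBMC-sec and 5.78 CPM untreated.

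**Figure D5:**
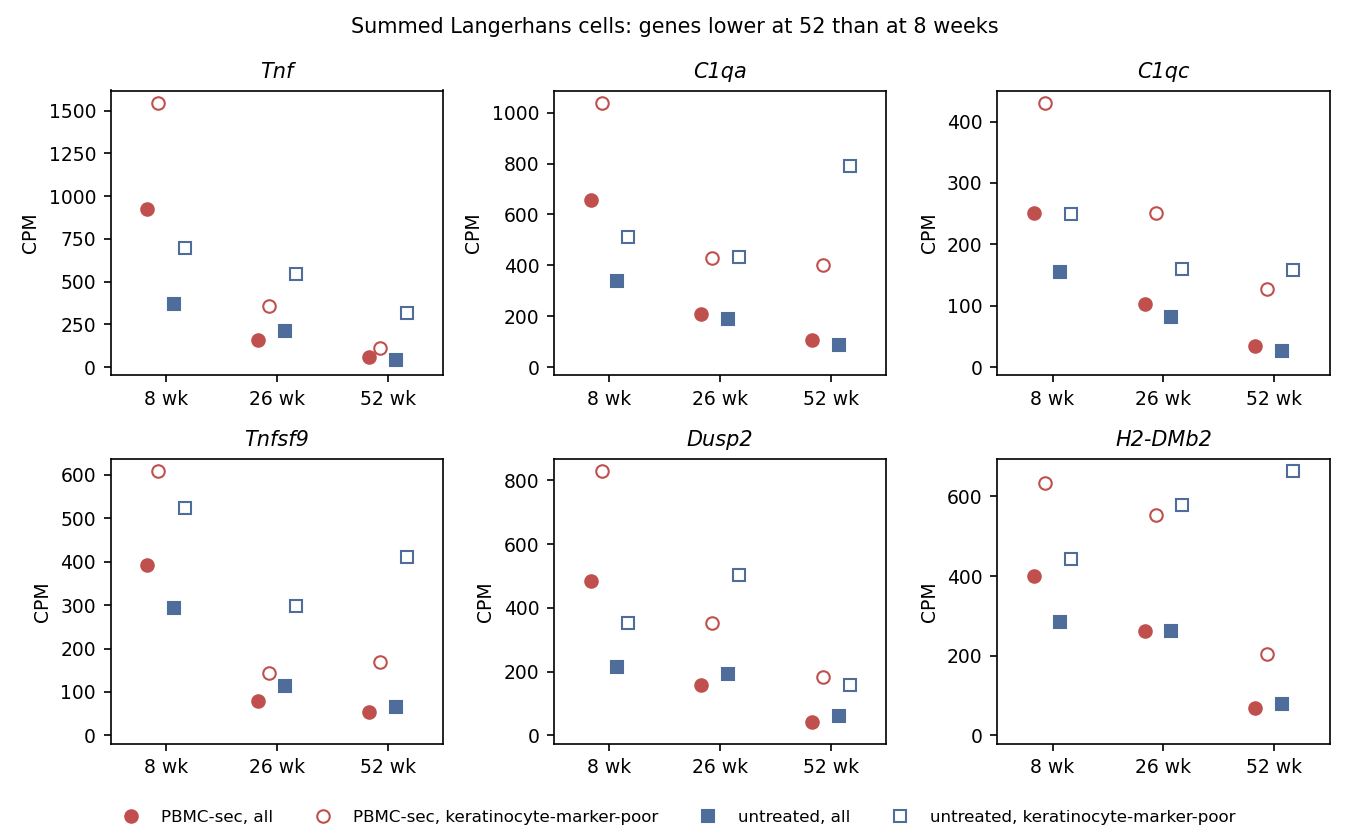
CPM (linear axis) of Tnf, C1qa, C1qc, Tnfsf9, Dusp2 and H2-DMb2 by age in each library, PBMC-sec left of untreated. Filled points show all Langerhans cells and open points the marker-poor ones. In the filled points both 52-week libraries lie below both 8-week libraries for each gene, and in the open points the ages overlap for C1qa and H2-DMb2.

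By list, few genes passed edgeR's test between 52 and 8 weeks, and DESeq2 called more. The median log2 difference over all 5088 tested genes was 0.02. Class II presentation had 1 lower gene of 10 tested, H2-DMb2, with a median of -1.57 and of -0.35 in marker-poor cells; DESeq2 called 4 lower. Maturation and migration had 0 calls among 19 with a median of -1.12, 18 of them below 0, and of -0.09 in marker-poor cells; DESeq2 called Ccr7 and Fscn1 lower. Langerhans identity had 0 calls among 15, with a median of -0.78 and of -0.07 in marker-poor cells, and DESeq2 called 1 higher and 3 lower.

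The inflammatory cytokine list had 1 lower gene of 15, Tnf, with a median of -1.04, and in marker-poor cells a median of -0.88 with 9 of 12 values below 0. DESeq2 called 6 of the 15 lower: Tnf, Il1b, Cxcl1, Cxcl2, Ccl2 and Nlrp3. Il1b had a log2 difference of -2.17 (SE 0.55, edgeR adjusted p = 0.0988) and of -0.89 in marker-poor cells. Nlrp3, a sensor that leads to interleukin-1β release, had -2.15 (SE 0.42, edgeR adjusted p = 0.058) and -1.18. The NRF2 antioxidant list had 0 calls among 20 and a median of -0.89, and in marker-poor cells a median of -0.47 with 12 of 12 values below 0. Heat shock genes had medians of 0.04 and of 0.27 in marker-poor cells, and ribosomal protein genes of 0.40 and 0.11, with 0 calls in either list by edgeR or DESeq2. DESeq2 called 95 genes of all those tested in this contrast.

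Between 26 and 8 weeks 0 of 5088 genes passed (0%) by edgeR's test and 0 by DESeq2, while 214 had an unadjusted p under 0.05. Among the 10 genes with the smallest p, none of which passed, Tnfsf9 measured 78.3 CPM with PBMC-sec and 115 CPM untreated at 26 weeks, against 392 and 293 CPM at 8 weeks, a log2 difference of -1.83 (SE 0.34). Ccl2 measured 24.2 and 35.2 CPM at 26 weeks, against 248 and 214 CPM at 8 weeks. The others were the cornified envelope genes Lce3e and Lce3f, Sprr2j-ps, Tchh, Ecm1, Pdpn, Timp3 and the interferon-inducible gene Ifi202b.

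Mki67, a gene of cycling cells, had a UMI in 4 of 53, 5 of 125 and 3 of 45 Langerhans cells thinned to 1000 UMIs in PBMC-sec libraries at 8, 26 and 52 weeks. In untreated libraries it had one in 5 of 68, 0 of 77 and 0 of 24 cells. Unthinned, it had one in 15.3%, 15.3% and 19.6% of PBMC-sec Langerhans cells and in 17.6%, 4.26% and 0% of untreated ones. All other cells had one in 1.26% to 4.72%. Median depth was 3388 UMIs in Langerhans cells and 2349 UMIs in all kept cells. The other cells were not thinned, so the unthinned percentages are not at equal depth. The 0 of 24 and 0 of 77 thinned cells allow shares of up to 12.5% and 3.90% of cells with a Mki67 UMI at 1000 UMIs. That is no limit on cells that express the gene. Top2a, another gene of cycling cells, had a UMI in 0 of 53, 2 of 125 and 1 of 45 thinned PBMC-sec Langerhans cells. In untreated ones it had a UMI in 2 of 68, 0 of 77 and 0 of 24.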

How the data were processed

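The deposited values were whole-number counts: UMIs per gene and cell barcode in 6 matrices of 32285 genes, made with Cell Ranger 5.0.1 per the file headers, on the mm10 (GRCm38) genome per the submitters' processing notes. The annotation release and the cell calling settings are not given in these sources.

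From 36542 barcodes, 34834 were kept by the limits given in the report. Counts were summed over the Langerhans cells of each library and fitted with edgeR 4.0.16 (R 4.3.3): TMM factors, filterByExpr by treatment, an additive model of treatment and age, the quasi-likelihood F test and Benjamini-Hochberg adjustment at 0.05. Age was the block that pairs the treatments. Class by treatment interactions used sums of 2 cell classes per library with library as a block. The p-values measure the spread between libraries, each a pool of 3 animals. The fits left 2 residual degrees of freedom per gene, and edgeR moved each gene's spread toward that of the other genes. DESeq2 1.42.0 was an alternative. The scripts were tested on simulated counts with 200 genes changed by treatment and 1 spread set for all genes. The test recovered 5.5% of 2-fold changes and 71.5% of 4-fold changes.

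The members and the 20 gene lists, 437 genes of which 2 have no row here, were chosen with earlier results of these data known, so no list is independent support. Named by rule were the 20 largest treatment changes past the threshold with the same sign at all 3 ages, the 10 largest of each age contrast with ages that did not overlap (the 10 smallest p where fewer than 10 passed), both only where the CPM in all other cells was at most 5 times that of the Langerhans cells in every library, and from each list the 4 most abundant tested genes and every gene that passed. Scrublet in scanpy 1.11.5 called 0 doublets at its automatic threshold, so the top-ranked cells at a rate of 0.8% per 1000 barcodes, 54 of them Langerhans cells, were left out as an alternative. Thinned values used 1000 UMIs per cell. Other alternatives changed scaling, filters, the cell rule, the marker-rich cells and the libraries. Promoter sequences are from RefSeq on GRCm38.p6 and matched 4 of the 4 linker histone genes by symbol or gene ID. A few results that the naming rule would include are not reported here.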

Additional observations from a re-analysis of the deposited data

Results flagged for a closer look

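The effect of PBMC-sec differed between Langerhans cells and another cell class for 9 of the named genes, by the interaction of class and treatment (edgeR quasi-likelihood, Benjamini-Hochberg adjusted). Each value is the log2 difference, PBMC-sec over untreated, in Langerhans cells minus that in the other class. Against all other cells Hist1h1c gave 1.58 (SE 0.32, adjusted p = 0.000212) and Ptpre gave 1.59 (SE 0.37, adjusted p = 0.00308), both with expression in marker-poor cells. Against all other cells Csta1 gave 1.79 (adjusted p = 9.66e-07), Sprr2h 1.40 (adjusted p = 0.000729), Phlda1 1.18 (adjusted p = 0.00803), Ccdc71l 1.14 (adjusted p = 0.0204), Foxo3 1.36 (adjusted p = 0.0492) and Capns2 -1.76 (adjusted p = 0.0204), genes with most of their UMIs in marker-rich cells. Against class II cells without Cd207, Ccdc71l gave 2.25 (adjusted p = 0.0477) and Defb1 gave 2.66 (adjusted p = 0.0486), and no gene passed in that comparison once marker-rich cells were left out.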

How the results depend on the processing

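PBMC-sec against untreated gave 41 calls. With no scaling beyond library size it gave 11, with at least 10 UMIs in all 123, with a mean of at least 30 UMIs 1, with cells thinned to 1000 UMIs 5, without marker-rich cells 2, and without the age block that pairs the libraries (no replicate block) 8; leaving out 1 age at a time gave 33 to 187. It gave 42 with RLE factors, 56 with DESeq2, 39 with the stricter cell rule, 49 without doublet candidates and 39 without repeated barcodes. For 52 against 8 weeks, 14 calls became 4 with no scaling, 146 with at least 10 UMIs, 0 with a mean of at least 30 UMIs, 95 with DESeq2, 0 with the stricter cell rule, 1 thinned, 26 without doublet candidates and 0 without marker-rich cells; leaving out single libraries gave 75 to 657. For 26 against 8 weeks, 0 calls became 18 with at least 10 UMIs and 1 thinned, and 10 to 109 without single libraries. The interaction with all other cells gave 149 calls, 78 without marker-rich cells and 83 to 133 without 1 age; that with class II cells without Cd207 gave 24, 0 and 45 to 60. The cause of these movements was not tested. The share ratio stayed between 0.16 and 0.67 on the log2 scale. Of the named genes that passed and a few others tracked singly, none changed sign under these settings; list genes that did not pass could, as when marker-rich cells were left out and Langerhans identity genes with a positive treatment difference went to 5 of 14, against 14 of 15; 86 of 274 gene and setting pairs for treatment and 50 of 198 for age lost the call. Settings without repeated barcodes, and several for the age contrasts and interactions, were chosen after seeing the data. Depth limits the marker-poor values most in the 52-week untreated library, with 10 such cells and 31602 UMIs.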
